A study of Mus musculus with 4 samples.

Results

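The DEAD and DEAH box RNA helicases were followed in B16F10 melanoma cells in which lamin A/C had been downregulated. They were taken as the genes whose symbol begins with Ddx or Dhx followed by a number, which gave 54 of the 24421 symbols of the count matrix. Of these 54 genes, 43 had enough counts to be tested, and the other 11 were too low. The study compared 2 libraries of shControl cells with 2 libraries of shLmna cells, all made by bulk MARS-seq, a method that tags transcripts at their poly(A) tail and counts them over a fixed window at the 3′ end. Both groups were B16F10 cells, a mouse melanoma line of C57BL/6 origin, transduced with a lentivirus and selected with puromycin. The shControl cells carried an empty vector and the shLmna cells a vector with a short hairpin RNA that targets Lmna, which encodes both A-type lamins. An effect of carrying any hairpin, or of this hairpin on other transcripts, therefore cannot be told apart from the loss of lamin A/C. The same holds for a difference between the transduced and selected populations. The sources used here do not say if replicate libraries were separate cultures, so the p-values below measure the spread between libraries, which may be technical.

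RNA helicases of these families use ATP to pull apart short RNA duplexes or to strip proteins from RNA. DEAD box enzymes open duplexes locally, and DEAH box enzymes move along a strand. Each is named after the letters of its Walker B motif, the place in the protein that binds the magnesium ion needed to split ATP. Members act at nearly every step in the life of an RNA, from splicing and ribosome assembly to export, translation and decay. Dhx15, the relative of yeast Prp43, takes apart the spliceosome once the intron has been released and also acts in ribosome assembly.

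The motif that names the family was looked up in the coding sequence of each member (GENCODE M21, GRCm38). It was found in 51 of the 54 genes and read DEAD in 28, DEAH in 9, DEVH in 4, DEVD in 3, DEIH, DECH and DECD in 2 each and DESD in 1. No match was found for Ddx26b, Ddx60 and Dhx32. The coding bases are shown for Dhx15, for Dhx8, Dhx16 and Dhx38, which are among its DEAH relatives in splicing, and for the members on which the comparison turns. Capitals mark the 12 bases that encode the 4 letters, and each stretch lies within 1 exon.
Dhx15 (DEAH, exon 4, chr5:52171487-52171516, minus strand): ataattcttGATGAGGCCCATgaaagaaca
Dhx8 (DEAH, exon 14, chr11:101752131-101752160, plus strand): attatgttgGATGAAGCACACgagaggacc
Dhx16 (DEAH, exon 10, chr17:35885499-35885528, plus strand): gtgatggtgGATGAAGCTCACgagcggacc
Dhx38 (DEAH, exon 14, chr8:109556056-109556085, minus strand): gtcatcatgGATGAGGCCCACgagcgctcc
Dhx9 (DEIH, exon 14, chr1:153468880-153468909, minus strand): gttattgtgGATGAAATTCATgaaagagat
Ddx21 (DEVD, exon 6, chr10:62591872-62591901, minus strand): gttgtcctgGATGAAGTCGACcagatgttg
Ddx3x (DEAD, exon 11, chrX:13289399-13289428, plus strand): ctggtgttaGATGAAGCTGACcggatgtta

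Library totals ranged from 2494880 to 3808843 counts. Lmna itself stood at 2684 and 2826 counts in shControl and at 331 and 480 in shLmna, lower in the libraries labelled as knocked down. The 7 melanocyte markers had summed levels of 20052 to 20821 CPM, the counts scaled to a common library size (cpm in edgeR), in shControl and 21087 to 24522 CPM in shLmna. Within this list Sox10 was lower (log2 fold change -0.89, edgeR adjusted p 0.00162), Mlana and Pmel were higher (0.51 and 0.41, edgeR adjusted p 0.0051 and 0.0258), and Tyr had 1 count in each shControl library and 3 and 7 in shLmna. Markers of fibroblasts, leukocytes, endothelium and epithelium summed to at most 17.9 CPM per list in any library, and Ptprc, Cdh5, Epcam and Dcn were among those at 0. Only Cd68 (leukocyte list) and Col1a2 (fibroblast list) could be tested. With control libraries first, Cd68 stood at 16.4, 14.4, 10.6 and 11.9 CPM and Col1a2 at 4.94, 3.47, 1.58 and 1.90 CPM. Both were lower in shLmna, with edgeR adjusted p of 0.284 and 0.142. Among untested markers, Krt8 was counted 16, 9, 0 and 1 times in that order, and Lyz2 5, 1, 2 and 5 times. CPM values are scaled by TMM normalization factors and are not divided by transcript length, because each transcript is counted over the same 3′ window.

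Dhx15 was singled out because its loss was already known from these libraries, so its own values are a description. It had 415 and 631 counts in the 2 shControl libraries and 13 and 15 counts in the 2 shLmna libraries. In CPM these were 128 and 168 against 5.12 and 4.07. The 2 groups were far apart, and the libraries within each group were close. On the log2 scale the change was -5.03 (SE 0.238, n = 2 per group), a 32.6-fold lower level, with a 95% interval of -5.56 to -4.50. Among the 54 helicase genes Dhx15 ranked 9 by level in shControl and 42 in shLmna. It held 3.51% and 4.61% of all helicase CPM in the shControl libraries and 0.158% and 0.121% in the shLmna libraries. The direction was kept under all 13 alternative settings, with log2 fold changes from -5.21 to -1.43. The smallest of these came from the ComBat values.

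**Figure D1:**
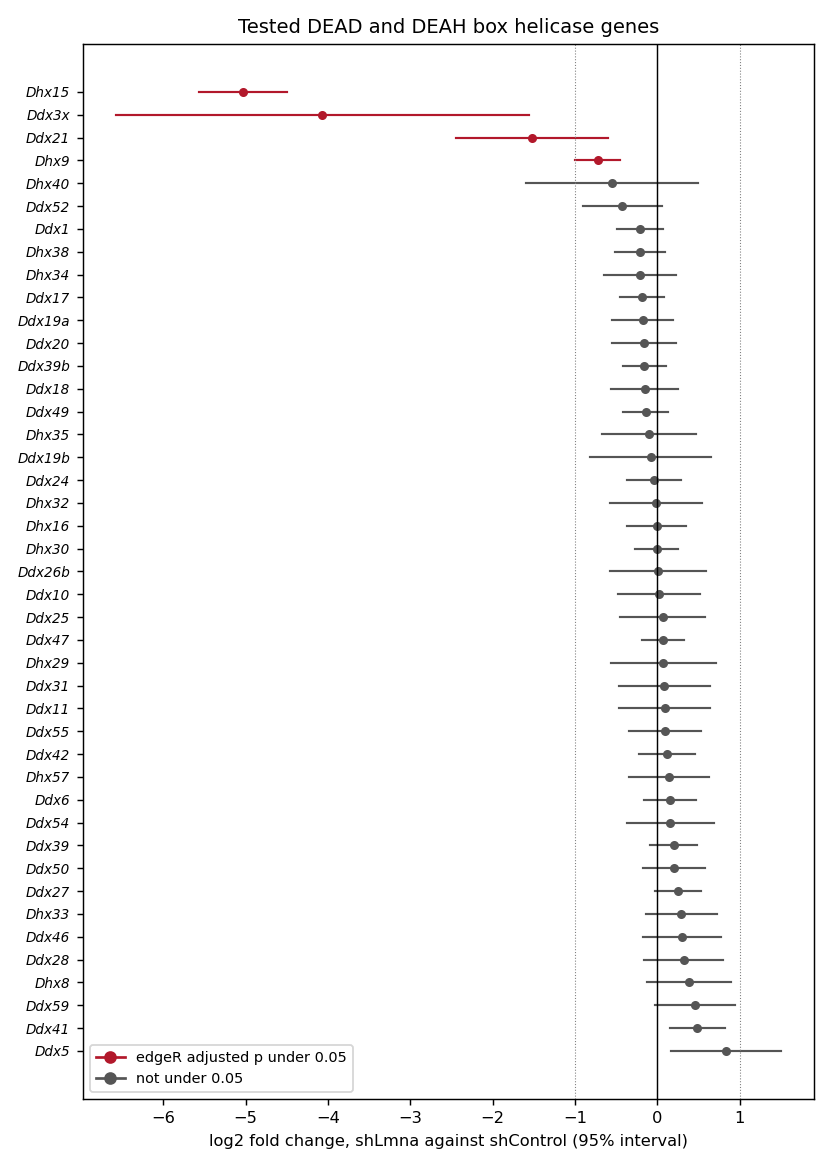
Log2 fold change of the 43 tested helicase genes, shLmna against shControl (x axis), with 95% intervals as horizontal bars and genes in rows ordered by value. Dhx15 lies at -5.03, and the intervals of 38 genes stay inside the dotted lines at -1 and 1.

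The question was whether relatives of Dhx15 followed it. Most did not. Of the 42 other tested helicases, 22 had a positive and 20 a negative log2 fold change, with a median of 0.01 and quartiles of -0.16 and 0.15. The median of all 9150 tested genes was -0.001, with quartiles of -0.30 and 0.27. Beside Dhx15, 3 members had an edgeR quasi-likelihood adjusted p under 0.05, namely Dhx9, Ddx21 and Ddx3x, and all 3 were lower in shLmna. These were 3 of the 42 relatives (7.14%), against a background of 9.74% of all tested genes lower by the same test. No member was higher with an edgeR adjusted p under 0.05, where the background was 5.48%. DESeq2 likewise gave 0 higher members, and at an unadjusted p under 0.05 edgeR gave 2, Ddx41 and Ddx5. In either direction 5 of the 42 relatives (11.9%) had an unadjusted p under 0.05, against 30.1% of all tested genes.

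A call in the sense of the study also asks for a log2 fold change beyond 1 in size and a mean normalized count over 5. By these limits Dhx15, Ddx21 and Ddx3x were called lower, which is 6.98% of the tested members beside 5.88% of all tested genes. Leaving out Dhx15, which was picked for its loss, it was 2 of 42 (4.76%). None was called higher, against a background of 1.76%, and DESeq2 called 0 as well. With DESeq2 the lower calls came down to Dhx15 alone. Only Dhx15 was called lower in every setting run.

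The intervals say more about the others than the calls do. For 39 of the 42 relatives the 95% interval lay above a 2-fold fall, the exceptions being Ddx3x, Ddx21 and Dhx40, a share of 92.9% beside 80.4% of all tested genes. For 38 of the 42 it lay within a 2-fold change either way, a share of 90.5% beside 66.0% of all tested genes. Interval width also depends on the number of counts, and these shares were not matched for abundance. A log2 fold change under 0.5 in size was found for 37 of the 42 (88.1%), against 71.8% of all tested genes. The libraries of the 2 groups did not overlap for 10 of the 42 relatives in the lower direction and for 10 in the higher direction (23.8% each). Among all tested genes these shares were 30.6% and 29.5%.

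The members closest to Dhx15 in sequence did not pass the test. Proteins translated from the coding sequences were aligned to Dhx15, and the 5 closest tested members were Dhx8, Dhx16, Dhx35, Dhx38 and Dhx33, with identities from 48.4% down to 42.8%. All 5 carry the DEAH motif. Dhx8, the relative of yeast Prp22 that frees the spliced mRNA, stood at 27.5 and 21.3 CPM in shControl and at 27.2 and 35.6 CPM in shLmna. Its log2 fold change was 0.38 with a 95% interval of -0.13 to 0.89. Dhx16, the relative of Prp2 that readies the spliceosome for its catalytic steps, stood at 48.2 and 58.4 CPM against 52.0 and 54.0 CPM. The libraries of the groups overlapped for both genes. The log2 fold change of Dhx16 was -0.01 with an interval of -0.37 to 0.35, and its sign turned in 5 of the alternative settings.

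Dhx38, the relative of Prp16 that acts before the second step of splicing, was at 76.6 and 78.2 CPM in shControl and at 69.4 and 64.4 CPM in shLmna. Its groups did not overlap, but the log2 fold change of -0.21 had an interval of -0.52 to 0.09 and an edgeR adjusted p of 0.334. Dhx35 had a log2 fold change of -0.10 (interval -0.67 to 0.47), and its sign turned without shControl 1 (0.19). Dhx33, a nucleolar member, had one of 0.29 (interval -0.14 to 0.72). Among the 12 other tested Dhx genes, 11 had an interval within a 2-fold change either way. The exception was Dhx40, counted 31 and 65 times in the shControl libraries and 37 and 18 times in the shLmna libraries, so that its interval of -1.59 to 0.49 was the widest of the Dhx genes.

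**Figure D2:**
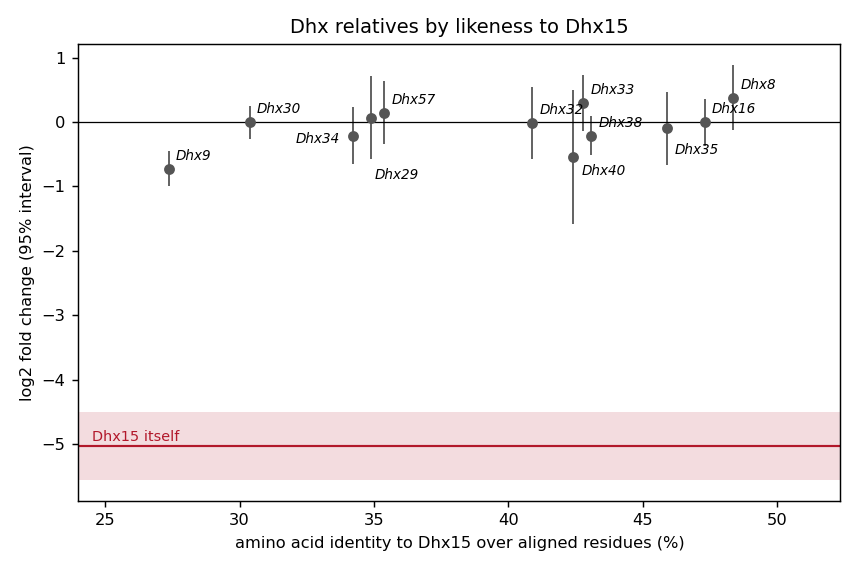
Log2 fold change with 95% interval (y axis) of the 12 other tested Dhx genes against amino acid identity to Dhx15 in percent (x axis). The red line and band give Dhx15 itself with its interval, and the relative closest in sequence, Dhx8 at 48.4% identity, lies at 0.38.

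Beside Dhx15, 11 tested members had a role in splicing. Of these 11, 0 were lower and 0 higher with an edgeR adjusted p under 0.05, against 9.74% and 5.48% of all tested genes. DESeq2 likewise gave 0 and 0, and at an unadjusted p under 0.05 edgeR gave 0 lower and 2 higher. Over all tested genes DESeq2 gave 570 lower and 217 higher, and at an unadjusted p under 0.05 edgeR gave 1508 lower (16.5%) and 1242 higher (13.6%). Ddx39b (UAP56), which helps U2 to join the branch point and loads export factors, was the most abundant helicase transcript, with 516 and 491 CPM in shControl and 444 and 458 CPM in shLmna. Its log2 fold change was -0.16 (interval -0.42 to 0.10). The shLmna libraries lay below both shControl libraries, by less than the test could tell from the spread.

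At an unadjusted p under 0.05 the splicing group also held Ddx41 and Ddx5, both with higher values in shLmna. Ddx41, which has been linked to splicing and to myeloid disease, stood at 45.4 and 48.3 CPM in shControl and at 69.4 and 62.2 CPM in shLmna. The groups did not overlap. On the log2 scale this was 0.48 (SE 0.151), with an edgeR adjusted p of 0.0591. It passed 0.05 in 4 alternative settings, namely library totals, no filter, the replicate block and ComBat values. With DESeq2 the adjusted p was 0.33. Ddx5 (p68), a coregulator of transcription and splicing, was at 27.2 and 64.8 CPM in shControl and at 84.4 and 81.2 CPM in shLmna. Here shControl 1 was low beside the other 3 libraries. Its value of 0.83 on the log2 scale (SE 0.30) had an edgeR adjusted p of 0.0947 and became 0.35 without shControl 1 and 1.60 without shControl 2. With shControl 2 left out, the low library was the one control. The edgeR adjusted p of Ddx5 was under 0.05 without the filter and with the replicate block, where its SE fell to 0.17 and 0.173. Passes that rest on this smaller SE are not read as support. It was also under 0.05 with the GC offset, alone or with the block, and Ddx5 was then called higher. Ddx17 (p72), the paralog of Ddx5 with 71.7% identical residues, stood at 158 and 152 CPM in shControl. In shLmna it was at 133 and 138 CPM, a log2 fold change of -0.19 (interval -0.46 to 0.07). The difference between these paralogs was not tested.

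**Figure D3:**
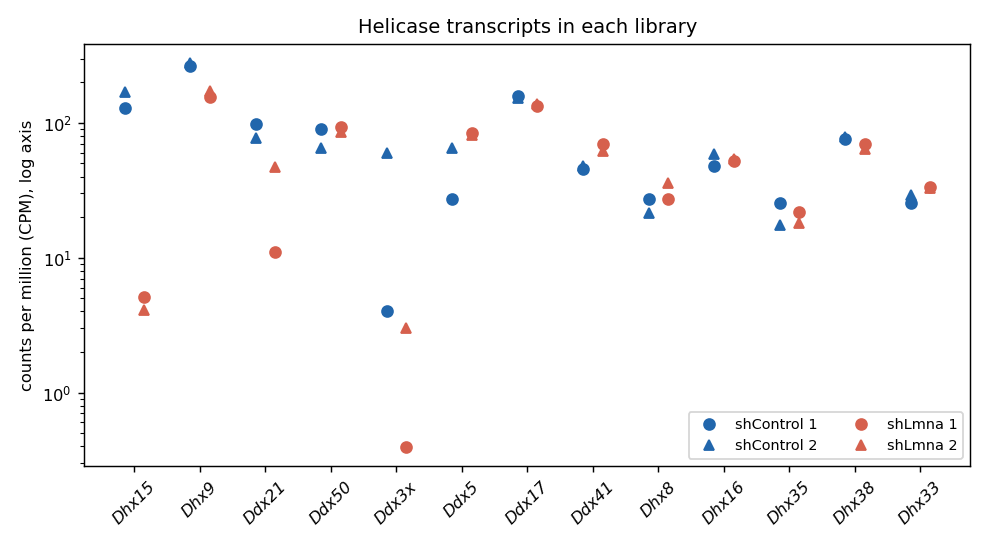
Level of 13 helicase transcripts in CPM on a log axis, with a circle for replicate 1 and a triangle for replicate 2, shControl in blue and shLmna in red. Dhx15 and Dhx9 separate the groups with close replicates, while Ddx21 differs between the shLmna libraries and Ddx3x and Ddx5 between the shControl libraries.

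Helicases of ribosome assembly were represented by 13 tested members, of which Ddx21 alone was lower and 0 were higher by the edgeR adjusted p. The lower share of 7.69% compares with 9.74% of all tested genes. With DESeq2 none passed in either direction, and at an unadjusted p under 0.05 edgeR gave 1 lower and 0 higher. The median log2 fold change was 0.07. Ddx21, a nucleolar helicase that couples transcription and processing of ribosomal RNA, was counted 319 and 292 times in the shControl libraries and 28 and 173 times in the shLmna libraries. Scaled to CPM, this was 98.5 and 77.9 against 11.04 and 47.0. Both shLmna libraries lay below both shControl libraries, but they also lay far apart from each other.

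The log2 fold change of Ddx21 was -1.52 (SE 0.413), with a 95% interval of -2.45 to -0.60 and an edgeR adjusted p of 0.0346. It became -0.90 without shLmna 1 and -2.98 without shLmna 2, so the size of the fall rests on 1 library. The adjusted p was 0.434 with DESeq2. Ddx50 is the paralog of Ddx21, with 61.8% identical residues, and lies 13.6 kb away on chromosome 10. It was at 90.4 and 65.1 CPM in shControl and at 93.0 and 85.5 CPM in shLmna, a log2 fold change of 0.20 with an interval of -0.18 to 0.58. The intervals of these neighbours did not overlap, and the difference itself was not tested. Of the 31-base stretches in the counted 3′ end of Ddx50, 25.3% also occur in transcripts of another gene, and for Ddx18 it was 70.0%, so reads of these genes are less certain.

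Among the 9 tested helicases of mRNA export, translation and decay, 2 were lower (22.2%) and 0 higher with an edgeR adjusted p under 0.05, against 9.74% and 5.48% of all tested genes. With DESeq2 it was 1 and 0, and at an unadjusted p under 0.05 edgeR gave 2 and 0. Dhx9 (RNA helicase A), which unwinds double-stranded RNA and RNA-DNA hybrids, had the more even values of the pair. It stood at 265 and 277 CPM in shControl and at 157 and 172 CPM in shLmna. The groups were well apart and the replicates close. Dhx9 thus fell by 39.4%, or -0.72 in log2 fold change (SE 0.122), with an interval of -0.995 to -0.45 and an edgeR adjusted p of 0.00375. Leaving out each library in turn gave -0.78 to -0.66, and the adjusted p was 0.0608 without shLmna 1. Its mean level dropped by 107 CPM, next among the members to Dhx15, which dropped by 144 CPM.

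Ddx3x, an X-linked helicase needed to translate mRNAs with structured leaders, was counted 13 and 224 times in the shControl libraries but 1 and 11 times in the shLmna libraries. Scaled to CPM, this was 4.01 and 59.8 against 0.394 and 2.99. The 2 shControl libraries differed from each other more than shControl 1 differed from shLmna 2. The log2 fold change of -4.07 (SE 1.12) had an interval of -6.57 to -1.56 and an edgeR adjusted p of 0.0368. Without shControl 2 it was -1.08 with an adjusted p of 0.413, and the adjusted p was also over 0.05 without either shLmna library and with DESeq2 (0.191). Other members of this group moved little. Ddx39, the close copy of Ddx39b with 91.1% identical residues, had a log2 fold change of 0.20 (interval -0.09 to 0.48). For Ddx6, which represses mRNA and promotes its decapping in P-bodies, it was 0.15 (interval -0.16 to 0.46).

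The remaining tested members had roles in mitochondria or roles that are less certain, and none of these 9 had an edgeR or DESeq2 adjusted p under 0.05, or an unadjusted edgeR p under 0.05. Dhx30 and Ddx28, which help to build the mitochondrial ribosome, had log2 fold changes of -0.01 and 0.32. Dhx30 hardly differed between libraries, with 157 and 153 CPM in shControl and 156 and 153 CPM in shLmna. Ddx1, part of the tRNA ligase complex, was the second most abundant helicase transcript, with 401 and 411 CPM against 325 and 373 CPM. Its log2 fold change was -0.22 (interval -0.50 to 0.06). From the nucleolar group, Ddx24 was also among the 5 most abundant. It was at 241 and 183 CPM in shControl and at 210 and 202 CPM in shLmna, a log2 fold change of -0.04 that turned to 0.17 without shControl 1. Ddx26b is listed here by its older symbol and is now named Ints6l, a subunit related to the Integrator complex. It had no match to the motif and is counted among the helicases by its symbol alone.

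The 11 members below the filter had few counts. Ddx3y, Ddx43 and Ddx60 had 0 counts in all 4 libraries, which allows up to 3 counts per library, or 0.801 to 1.18 CPM. The RNA sensors Ddx58 (RIG-I) and Dhx58 (LGP2) had at most 1 and 9 counts. Dhx58 stood at 9 and 8 counts in shControl and at 2 and 4 in shLmna, and without the filter its edgeR adjusted p was 0.342. Dhx37 was the one with 10 or more counts in a library, with 5 and 6 in shControl and 7 and 16 in shLmna. Ddx23, Ddx51, Ddx56 and Dhx36, which act in splicing, ribosome assembly and the unwinding of quadruplexes, had no more than 2 counts in any library, and the germ-line helicase Ddx4 likewise.

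All helicase transcripts other than Dhx15 summed to 3522 and 3487 CPM in the shControl libraries and to 3244 and 3352 CPM in the shLmna libraries. The shLmna sums were lower, and an exact permutation test (two-sided, n = 2 per group) gave p = 0.333, the smallest that this design allows. The mean sums were 3504 CPM and 3298 CPM. Among single members Dhx9 dropped by 107 CPM and Ddx21 dropped by 59.2 CPM, while the means of Ddx1 and Ddx39b, which did not pass the test, were 406 and 503 CPM in shControl and 349 and 451 CPM in shLmna.

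Among all tested genes, base composition of the counted 3′ end moved with the calls in both directions. GC content of the last 1000 transcript bases was 36.6% for Dhx15, 37.5% for Ddx21 and 33.7% for Ddx3x, in a range of 33.7% to 60.6% over the tested helicases. Of the 11 tested members at or under 42%, these 3 were called lower (27.3%), a share that counts Dhx15, which was picked for its loss. DESeq2 called 1 of the 11, and this was Dhx15. Over all tested genes in that range, 428 of 2606 were called lower (16.4%). Of the 32 members over 42%, 0 were called, with 2 at an unadjusted edgeR p under 0.05 and 0 called by DESeq2. Over all tested genes in that range, 106 of 6489 were called lower (1.63%). Higher calls were also more frequent at low GC content, with 103 of 2606 tested genes at or under 42% and 58 of 6489 over it. The median log2 fold changes of these 2 ranges were -0.03 and 0.01. Dhx9 at 48.9% was the member over 42% that passed the adjusted test. Among members at or under 42% that were not called, Ddx5 had the same 36.6% as Dhx15 and Ddx6 had 38.8%. Their log2 fold changes were 0.83 and 0.15, and that of Ddx5 became 0.35 without shControl 1. When a smooth of counts on GC was taken out, Dhx15 was at -4.62 and Dhx9 at -0.85, both past the adjusted test. Ddx1 and Ddx17 were then lower past it as well, and Ddx5 was higher at 1.26 (edgeR adjusted p 0.0113). The median of all tested genes was -0.083 in that fit. Ddx21 was at -1.30 and Ddx3x at -2.95, with edgeR adjusted p of 0.0606 and 0.094. With the replicate block in the same fit both passed, with edgeR adjusted p of 0.0412 and 0.000454. Same-numbered libraries share only a number, and with the block the SE of Ddx3x fell from 1.08 to 0.372. These 2 passes are therefore not read as support. The part of base composition in the result was not tested beyond this.

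**Figure D4:**
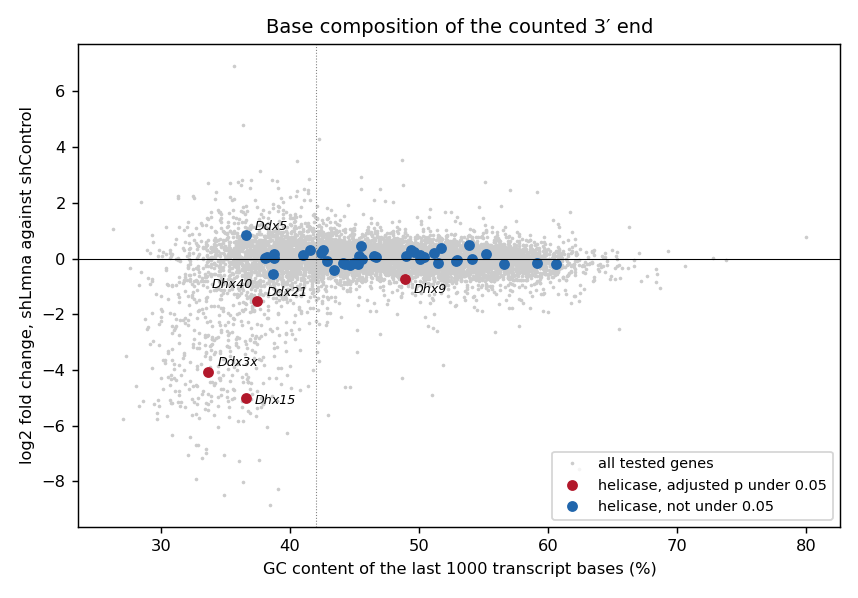
Log2 fold change (y axis) against GC content of the last 1000 transcript bases in percent (x axis), for all tested genes in grey and for the 43 tested helicases in colour. Dhx15, Ddx3x and Ddx21 lie left of the dotted line at 42%, as does Ddx5 at 0.83, and Dhx9 lies to the right at -0.72.

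RNA helicases outside the Ddx and Dhx symbols were looked at in the same fit, from a list of 22 genes of which 17 were tested. With an edgeR adjusted p under 0.05, 1 was lower (5.88%) and 2 were higher (11.8%), against 9.74% and 5.48% of all tested genes, and the median log2 fold change was 0.09. Dqx1 went from 17.9 and 16.8 CPM to 37.5 and 35.3 CPM, which is 1.06 on the log2 scale (SE 0.204) with an edgeR adjusted p of 0.00742. Aqr (aquarius), a helicase that binds introns in the spliceosome, went from 65.4 and 61.1 CPM to 80.8 and 98.9 CPM, a log2 fold change of 0.51 with an edgeR adjusted p of 0.0467. Aqr was over 0.05 in 6 of its 13 alternatives, DESeq2 among them. The GC content of the 3′ end was 48.9% for Dqx1 and 45.7% for Aqr.

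The Eif4a genes, the founding members of the DEAD box family, did not pass the adjusted test. Eif4a1, which unwinds mRNA leaders for translation, was counted 2629 and 2856 times in shControl and 2529 and 3388 times in shLmna, a log2 fold change of 0.28 with an edgeR adjusted p of 0.125. Eif4a2, its close relative, was at 12.3 and 14.4 CPM in shControl and at 6.31 and 9.23 CPM in shLmna. Its groups did not overlap, and its log2 fold change was -0.76 with an edgeR adjusted p of 0.12. Eif4a3, the core of the exon junction complex, had a log2 fold change of -0.16. Snrnp200 (Brr2), which unwinds U4 from U6, had one of 0.13.

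Partners of the DEAH helicases carry a G-patch, a short domain that switches on the ATPase. Of 23 such genes 21 were tested, and with an edgeR adjusted p under 0.05, 3 were lower (14.3%) and 0 higher, against 9.74% and 5.48% of all tested genes. DESeq2 gave 1 lower and 0 higher, and at an unadjusted p under 0.05 edgeR gave 6 lower (28.6%) and 2 higher (9.52%), against 16.5% and 13.6%. The median log2 fold change was -0.18. Nkrf, which recruits Dhx15 in the processing of ribosomal RNA, was counted 36 and 45 times in shControl and 7 and 9 times in shLmna. The groups were clearly apart, at 11.1 and 12.0 CPM against 2.76 and 2.44 CPM. On the log2 scale this was -2.15 (SE 0.36), with an edgeR adjusted p of 0.00367, and the adjusted p was 0.0635 without shLmna 2.

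For Gpatch2l the log2 fold change was -1.13 with an edgeR adjusted p of 0.0303, and for Rbm17 (SPF45), a splicing factor, it was -0.50 with an edgeR adjusted p of 0.0239. The libraries of Rbm17 were at 188 and 166 CPM in shControl and at 125 and 124 CPM in shLmna. With DESeq2 the adjusted p of both was over 0.05 (0.342 and 0.0613). Tfip11, the partner that brings Dhx15 to the intron-lariat spliceosome, was counted 279 and 300 times in shControl and 190 and 226 times in shLmna, a log2 fold change of -0.29 with an edgeR adjusted p of 0.225. For Sugp1, another partner of Dhx15 in splicing, it was -0.18 with an edgeR adjusted p of 0.533.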

How the data were processed

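RNA of 4 B16F10 libraries (2 shControl, 2 shLmna) was profiled by bulk MARS-seq. The authors trimmed reads with Cutadapt, aligned them to mm10 with STAR 2.4.2a and counted them with HTSeq over the last 1000 bases of RefSeq genes and a short stretch downstream. Duplicates were marked by molecular identifier before identifiers were counted. The deposited count matrix holds 1.08 to 1.09 times the counts recovered from the signal table, and which of the 2 tables holds collapsed counts is not given in the sources used here. The authors also deposited a signal table, which is counts divided by 1 DESeq2 size factor per library (100% of its values were whole multiples of 1 step, within 0.1), and log2 values corrected with ComBat for batches that are not named. The signal table also holds the authors' p-values and adjusted p-values, which were not used.

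Counts were tested with edgeR 4.0.16 in R 4.3.3 (TMM, filterByExpr, quasi-likelihood F test, two-sided, group as the one term), adjusted by Benjamini-Hochberg over 9150 genes. A call needs an adjusted p under 0.05, a log2 fold change over 1 in size and a mean normalized count over 5. SE and 95% intervals come from the F statistic. The fit was checked on simulated counts drawn with the same spread for every gene. That check does not cover genes whose replicates lie far apart, such as Ddx3x, Ddx21 and Ddx5. Intervals and detection limits at 3 counts cover the counts and library spread only. Replicates differed by more than sampling noise (chi-square per degree of freedom 6.96 in shControl and 3.91 in shLmna). Same-numbered libraries did not deviate together (correlation across genes 0.01).

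GC content, coordinates and coding bases come from GENCODE M21 (GRCm38), using the longest transcript with a RefSeq match. All 54 members matched. Identity is over aligned residues of translated coding sequences (global alignment, BLOSUM62). No protein table was used. The named motif was searched as D-E-x-D or D-E-x-H after 2 hydrophobic residues and downstream of the ATP-binding loop.

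Members and lists were chosen with earlier results of these data known. Genes named with values are Lmna, Dhx15, members with an adjusted p under 0.05, the 5 most abundant in shControl, the 5 most like Dhx15, members with an unadjusted p under 0.05 and genes of the 2 pathway lists with an adjusted p under 0.05. A gene of the pathway lists that meets this rule, and the neighbours of Dhx9, are not reported here. Paralogs of the named genes, known partners of Dhx15 and a few steady members were added after their values were seen. Alternatives were RLE scaling, library totals, no filter, DESeq2 1.42.0, a replicate block, a GC offset, block and offset together, counts recovered from the signal table, limma 3.58.1 on the ComBat log2 values, and leaving out each library.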

Additional observations from a re-analysis of the deposited data

How the results depend on the processing

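The fall of Dhx15 kept its direction and its side of the threshold under all 13 alternatives. Over the named genes other than Lmna, 231 of the values for single genes kept both, 23 no longer passed the adjusted test, 11 newly passed it and 8 changed sign. The sign changes were Ddx24 without shControl 1 (0.17), Dhx35 without shControl 1 (0.19) and without shLmna 2 (0.04), and Dhx16 with library totals (0.0255), without shControl 2 (0.14), without shLmna 1 (0.02), with recovered counts (0.0100) and with ComBat values (0.0038). Leaving out 1 library gave -0.23 to 0.17 for Ddx24, -0.14 to 0.14 for Dhx16 and -0.36 to 0.19 for Dhx35. The cause was not tested.

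With library totals 1 helicase was higher by the adjusted p. The median of the tested helicases was then 0.0395, beside 0.0322 for all tested genes. Without the filter 2 were higher, and 3 helicases outside the symbols were lower. With the replicate block 2 helicases were higher, 2 outside helicases lower and 5 G-patch genes lower; same-numbered libraries share only a number. With the GC offset 315 tested genes were called higher, and 1 helicase was called lower and 1 called higher. By the adjusted p 1 helicase was higher, and outside helicases were 2 lower and 1 higher. The median of the tested helicases was -0.10, beside -0.083 for all tested genes in that fit. With the replicate block and GC offset together 313 tested genes and 1 helicase were called higher. By the adjusted p 7 helicases were lower and 1 higher, and outside helicases were 2 lower and 1 higher. The median of the tested helicases was -0.0918, beside -0.08 for all tested genes in that fit. With DESeq2 66 tested genes were called higher (391 lower), 1 helicase was called lower, 2 were lower by the adjusted p, and 1 outside helicase was higher and 1 G-patch gene lower. With ComBat values 28 tested genes were called lower and 2 higher, and 1 helicase was called lower. By the adjusted p 5 helicases were then lower and 6 higher. Outside helicases were 4 lower and 5 higher, and G-patch genes 8 lower and 2 higher. Lower helicases by the adjusted p stayed at 4 with library totals, without the filter, with the replicate block and with the GC offset. Apart from DESeq2, no share of all tested genes by the adjusted p stands beside these counts. They are therefore not read as a result about the members.

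Leaving out 1 library gave 387 to 750 tested genes called lower and 60 to 232 called higher, 1 to 3 helicases called lower and 0 to 1 called higher, and 2 to 4 lower and 0 to 1 higher by the adjusted p. Outside helicases were then 1 to 2 lower and 1 to 2 higher, G-patch genes 0 to 3 lower and 0 to 1 higher, and the median lay between -0.0256 and 0.0223. The lone library of a group is then assumed to vary like the other group. No share of all tested genes by the adjusted p stands beside these counts either. They are likewise not read as a result about the members. Without the filter none of the members below it had an edgeR adjusted p under 0.05 (Dhx37 0.247, Dhx58 0.342). With ComBat values Dhx37, which had 5 to 16 counts per library, was among the helicases with a limma adjusted p under 0.05.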

Other observations

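The tested genes nearest to Dhx15, Ddx21 and Ddx3x on their chromosomes were read in the same fit, taking the 2 nearest on each side. Around Dhx15 on chromosome 5 these were Sod3 at 173 kb, with a log2 fold change of -0.10, Pi4k2b at 551 kb with 0.67 (edgeR adjusted p 0.00787), Adgra3 at 2091 kb with -0.31 and Ncapg at 6450 kb with 1.86 (edgeR adjusted p 0.00139). None of the 4 was lower with an adjusted p under 0.05. Around Ddx21, Kif1bp at 1.79 kb had a log2 fold change of 0.02, and Vps26a and Ccar1 had 0.39 and -0.16, with Ddx50 as given above. Around Ddx3x on the X chromosome, Atp6ap2 at 664 kb had one of -5.62 (edgeR adjusted p 2.57e-05) and Fundc1 one of -1.66 (edgeR adjusted p 0.00164), while 1810030O07Rik and Maoa had 0.37 and -0.33.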
